A study of Arabidopsis thaliana with 9 samples.

Results

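The roots of wild-type Arabidopsis thaliana, accession Col-0, were compared between plants grown on medium with 0.5 mM KCl plus cesium chloride (3 libraries, called cesium roots here) and plants grown on medium with 0.5 mM KCl alone (3 libraries, control roots). The labels write the amount of cesium chloride as 0.3 mL and give no concentration, age or length of exposure. The remaining 3 libraries, from the same genotype on 0.025 mM KCl without cesium, are called low-potassium roots and are used here as a second set of values for the same genes. All plants were grown on sucrose-containing agarose medium in long days, and RNA from whole roots was made into strand-specific libraries. Expression is given as FPKM, the fragments mapped to a gene scaled by its transcript length and by the library's total. Of 37547 genes in each file, 19565 averaged 1 FPKM or more in the cesium and control libraries together and were tested. A gene is said to have risen or fallen when its adjusted p in the limma model of log2(FPKM + 1) was under 0.05.

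Cesium is an alkali metal whose ion resembles that of potassium. It enters roots largely through potassium transporters and cation channels, competes with potassium inside the cell, and stunts root growth at high supply. Potassium itself sets turgor and membrane voltage in root cells, and turgor drives the expansion of growing cell walls.

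The 3 libraries of each group came from samples that the labels call biological replicates without saying that they were separate cultures, so the p-values rest on a spread between libraries that may be technical. Summed FPKM ran between 715298 and 845355 over the 9 libraries, and 19172 to 19481 genes reached 1 FPKM in each. The lowest sum was that of cesium replicate 3, which lists the metallothionein gene MT1A at 0, where the other 8 libraries have it at 65213 to 94117 FPKM. On the principal components of all tested genes, cesium replicate 3 lay away from its group on component 3, at 37.92 where cesium replicates 1 and 2 lay at -27.24 and -19.53. Many results that depend on it, though not all, are given without it or as a range over the libraries left out. Plastid genes made up 0.184, 0.222 and 0.468% of summed FPKM in cesium replicates 1, 2 and 3 and 0.0802 to 0.125% in control roots, and mitochondrial genes 0.0517 to 0.0581% in cesium roots and 0.0129 to 0.0184% in control roots; the part of these shares in the results was not tested. Of 14 root cell-type markers, all tested, 3 rose (PLT2, WOX5 and APL, of meristem and phloem) and 3 fell (CASP1, GL2 and RHD6, of endodermis and epidermis). The summed level of the 14 was 298 to 366 FPKM in cesium roots and 477 to 544 FPKM in control roots. Most of that difference lay in CASP1, with 144, 137 and 188 FPKM in cesium roots and 326, 315 and 386 FPKM in control roots. The median log2 change of the 14 markers was 0.01. Of 15 shoot markers, 2 reached the test and neither passed, with sums of 12.6 to 14.8 FPKM in cesium roots and 9.22 to 11.7 FPKM in control roots; FAMA, MUTE and YAB5 were listed at 0 in all 6 libraries. In whole roots, fewer cells of a type and less RNA per cell cannot be told apart.

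Of the 19565 genes, 2143 rose (11.0%) and 2516 fell (12.9%), and 450 of those that rose (2.30%) and 496 of those that fell (2.54%) did so by a log2 change of at least 1. Without control replicate 2 the counts were 1278 and 1665, and without control replicate 3 they were 1460 and 1633. The 12 genes with the largest rise and the 12 with the largest fall, among genes that passed, whose groups did not overlap and whose higher group averaged at least 5 FPKM, set out the extremes of the comparison.

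The largest rise among the 12 was that of a cytochrome P450, CYP710A4 (AT2G28860), of the sterol C-22 desaturases, with 202, 129.8 and 67.3 FPKM in cesium roots, against 1.17, 1.59 and 1.46 FPKM in control roots (log2 change 5.67 ± 0.307, adjusted p = 6.58e-06). Its cesium libraries were spread widely and all were far above the controls. The 12 also held 3 lipid-transfer genes and a cysteine-rich peptide gene. AIR1 (AT4G12550), a gene first described as auxin-induced in root cultures that encodes a small lipid-transfer-like cell wall protein (chromosome 4, 7439115 to 7440116), had 7273, 4665 and 3899 FPKM in cesium roots, against 222, 201 and 273 FPKM in control roots (log2 change 4.47 ± 0.207, adjusted p = 5.82e-06). Its neighbour AT4G12545, of the same protein family (chromosome 4, 7434094 to 7434858), had 2915, 1925 and 1626 FPKM in cesium roots, against 179, 158 and 181 FPKM in control roots (log2 change 3.59 ± 0.193, adjusted p = 6.38e-06). Every cesium library was far above every control library for both genes, and far above every low-potassium library. Low-potassium values of AIR1 were below all its control values (103, 96.3 and 92.9 FPKM in low-potassium roots), and those of AT4G12545 overlapped its controls (179, 149 and 139.6 FPKM in low-potassium roots). AIR1 shared 11.4% of its 50-base stretches with AT4G12545, so fragments from one could be counted for the other. The remaining tested members of this gene row did not pass: AZI1, EARLI1, AT4G12490, AT4G12500, AT4G12510, AT4G12520 and AT4G12540. AT4G12500 came close, with a log2 change of 1.00 ± 0.332 (adjusted p = 0.0538), and EARLI1 had 0.85 ± 0.328 (adjusted p = 0.0879). In both, control replicate 3 was well above the other controls. The rest of these had log2 changes of -0.03 to 0.37.

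Another lipid-transfer gene, AT4G22610, had 128, 90.2 and 98.4 FPKM in cesium roots, against 7.16, 5.33 and 3.65 FPKM in control roots (log2 change 4.08 ± 0.190, adjusted p = 5.82e-06). LCR85 (AT4G22210), a low-molecular-weight cysteine-rich protein of the defensin-like class, had 47.6, 34.3 and 111 FPKM in cesium roots, against 0.816, 0.542 and 0.606 FPKM in control roots (log2 change 5.13 ± 0.333, adjusted p = 1.75e-05), with the highest value in cesium replicate 3. The low-potassium libraries listed it at 0. AT2G05510, a glycine-rich protein, had 3917, 1804 and 1563 FPKM in cesium roots, against 195, 168 and 183 FPKM in control roots (log2 change 3.61 ± 0.315, adjusted p = 8.74e-05). For this gene the low-potassium libraries were also above every control library, with 3156, 5274 and 3727 FPKM in low-potassium roots. GolS7 (AT1G60450), a galactinol synthase, had 27.6, 14.9 and 7.32 FPKM in cesium roots, against 0, 0.0409 and 0 FPKM in control roots; one control library was above 0 and all low-potassium libraries were at 0, so no fold is given.

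Among the other large rises were a transposable element gene, AT5G28145 (21.8, 11.2 and 20 FPKM in cesium roots, against 0.247, 0.255 and 0.162 FPKM in control roots; log2 change 3.88 ± 0.205, adjusted p = 6.38e-06), and AT5G38100, of the methyltransferases (54.6, 37.9 and 22.9 FPKM in cesium roots, against 0.851, 1.41 and 0.434 FPKM in control roots; log2 change 4.33 ± 0.304, adjusted p = 2.85e-05). AT3G29252 and AT3G05770, whose functions are not named in the annotation, rose by log2 changes of 3.90 ± 0.187 and 3.56 ± 0.234. The plastid gene ATCG00630, which rose by the same test, was listed at 0 in 2 control libraries and had 20.3, 26.6 and 23.7 FPKM in cesium roots, against 0, 0 and 8.17 FPKM in control roots; plastid shares were higher in cesium roots, as given above.

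The largest fall was that of an oxygenase. AT1G52820, a 2-oxoglutarate and Fe(II)-dependent oxygenase (chromosome 1, 19669005 to 19671059), had 0.668, 1.75 and 2.54 FPKM in cesium roots, against 53.7, 45.8 and 45.1 FPKM in control roots (log2 change -4.28 ± 0.229, adjusted p = 6.38e-06). The neighbouring oxygenase genes AT1G52800 and AT1G52790 fell too, by log2 changes of -2.11 ± 0.127 and -1.58 ± 0.146, and AT1G52810, which lies between AT1G52820 and AT1G52800, was not tested. AT1G52800 and AT1G52790 stayed under 1 FPKM in every cesium library and reached the test only through their control values. AT1G52790 was at the floor of the test, listed at 0 in cesium roots and at 2.39, 1.91 and 1.72 FPKM in control roots. A fall was close to the only result open to AT1G52790, which was named after its values were seen. CYP712A1 (AT2G42250), a cytochrome P450, had 0.175, 0.328 and 0.623 FPKM in cesium roots, against 13.2, 10.3 and 9.87 FPKM in control roots (log2 change -3.14 ± 0.161, adjusted p = 5.82e-06). In both genes every low-potassium library was also below every control library, with 1.62, 1.34 and 1.79 FPKM in low-potassium roots for AT1G52820 and 0.387, 0.211 and 0.202 FPKM in low-potassium roots for CYP712A1.

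FTM1 (AT1G43800), a stearoyl-ACP desaturase, had 4.43, 7.57 and 7.16 FPKM in cesium roots, against 78.4, 79.8 and 61.2 FPKM in control roots (log2 change -3.35 ± 0.171, adjusted p = 5.82e-06). ICS2 (AT1G18870), an isochorismate synthase, had 2.69, 2.12 and 3.02 FPKM in cesium roots, against 23.3, 27.0 and 23.1 FPKM in control roots (log2 change -2.82 ± 0.116, adjusted p = 5.82e-06). Both fell without overlap between the groups, a condition for being among the 12. LEA7 (AT1G52690), a late embryogenesis abundant protein, fell as well (2.36, 2.61 and 4.87 FPKM in cesium roots, against 65.1, 90.9 and 15.9 FPKM in control roots; log2 change -3.50 ± 0.572, adjusted p = 0.00236), with control replicate 3 well below the other controls. IPS1 (AT3G09922), a non-coding RNA that sequesters the phosphate-starvation microRNA miR399, had 0.121, 0.730 and 0.123 FPKM in cesium roots, against 7.91, 9.41 and 9.13 FPKM in control roots (log2 change -2.92 ± 0.181, adjusted p = 1.37e-05), and 2 low-potassium libraries listed it at 0. OCT1 (AT1G73220), an organic cation transporter, had 1.17, 2.04 and 2.10 FPKM in cesium roots, against 12.3, 11.0 and 27.1 FPKM in control roots (log2 change -2.59 ± 0.325, adjusted p = 0.000549). The others of the 12 were AT2G04460, a transposable element gene (-2.87), AT5G20790 (-2.96), AT5G03545 (-2.41), AT3G29410, of the terpenoid cyclases (-2.39), and AT3G18450 (-2.31).

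**Figure D1:**
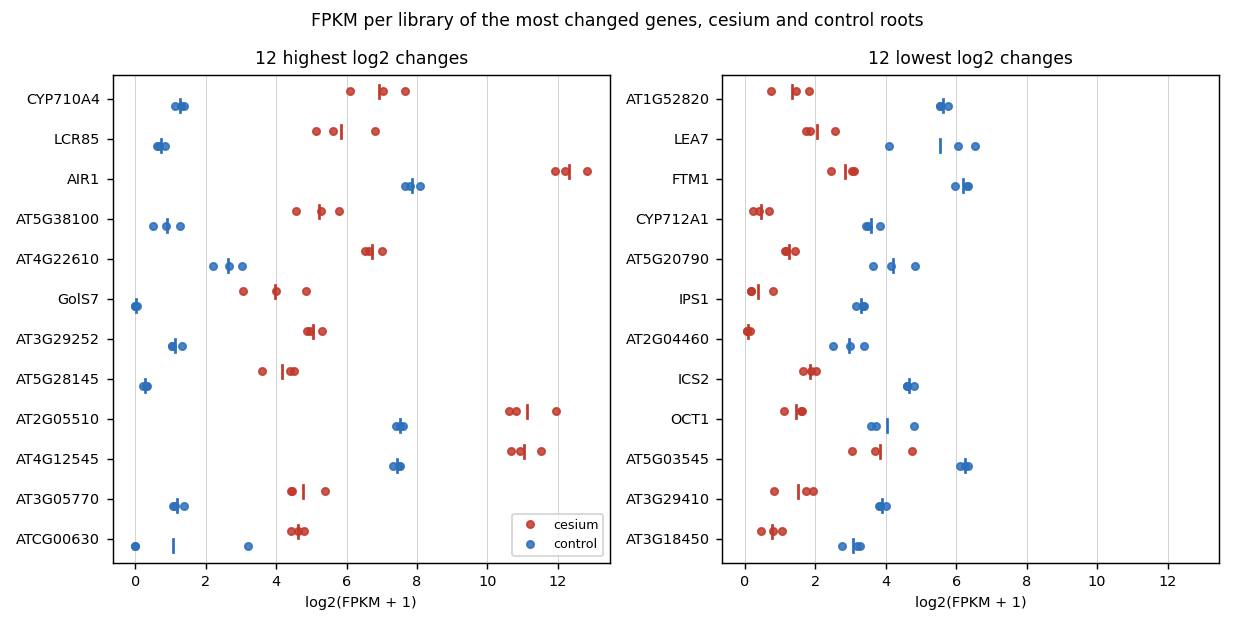
Each row is one of the 12 genes with the largest rise or the 12 with the largest fall; the horizontal axis is log2(FPKM + 1), points are the 3 cesium (red) and 3 control (blue) libraries, and vertical bars are group means. AIR1 reaches furthest right, with cesium libraries at 3899 to 7273 FPKM and control libraries at 201 to 273 FPKM. The red and blue points of no row overlap, which was a condition for choosing these genes.

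The promoters of AIR1 and AT4G12545 are shown because the neighbours rose together. They are the 250 bases before the RefSeq gene start on the TAIR10.1 assembly, both on the plus strand, at chr4:7438865-7439114 and chr4:7433949-7434198, with capitals marking runs of at least 15 bases identical in both. The region that the files give for AT4G12545 begins before its RefSeq start, so the last part of its window lies inside that region.
AIR1: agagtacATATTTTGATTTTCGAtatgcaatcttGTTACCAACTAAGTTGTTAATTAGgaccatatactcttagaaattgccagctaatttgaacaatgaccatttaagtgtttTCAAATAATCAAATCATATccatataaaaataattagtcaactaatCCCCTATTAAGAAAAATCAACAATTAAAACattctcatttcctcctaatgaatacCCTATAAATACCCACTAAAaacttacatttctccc
AT4G12545: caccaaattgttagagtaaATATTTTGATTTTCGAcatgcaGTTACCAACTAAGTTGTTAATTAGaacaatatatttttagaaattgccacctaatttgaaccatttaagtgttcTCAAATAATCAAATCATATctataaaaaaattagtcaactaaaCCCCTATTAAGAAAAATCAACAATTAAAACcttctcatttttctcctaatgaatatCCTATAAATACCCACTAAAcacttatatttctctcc
Over 264 aligned columns, 222 were identical (84.1%), and the identical letters included 5 runs of at least 15 bases, the longest of 30. The capitals were spread over the whole window.

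Rap2.6L, an AP2/ERF transcription factor described below, has a promoter (chr5:4271480-4271729, plus strand) with a pair of site II matches close to each other, in capitals, at the end away from the gene start.
Rap2.6L: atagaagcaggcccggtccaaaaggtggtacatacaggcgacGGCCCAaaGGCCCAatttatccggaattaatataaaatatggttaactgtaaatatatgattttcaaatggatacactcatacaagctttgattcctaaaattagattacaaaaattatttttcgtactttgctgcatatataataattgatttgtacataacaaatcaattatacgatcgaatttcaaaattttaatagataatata
Site II here is the letters TGGGCC on either strand, and its reverse complement is GGCCCA. It was in 13.4% of promoters of genes that rose and 7.74% of those of genes that fell, beside 16.6% of all 18807 promoters of tested genes. The telo-box (AAACCCTAA) was in 2.76% of promoters of genes that rose, 0.843% of those that fell and 2.09% of all. The GCC-box (GCCGCC) was in 2.16% of those that rose, 0.722% of those that fell and 1.95% of all. The G-box (CACGTG) was in 8.53% of those that rose, 7.46% of those that fell and 7.34% of all, and the shares of the W-box (TTGACC), ABRE (ACGTGNC), auxin response element (TGTCTC), AC element (ACCTACC) and P1BS (GNATATNC) differed from their share in all promoters by less than that of the G-box in genes that rose. Both strands were searched; ABRE and G-box matches can overlap. These are letter matches in 1 window and say nothing of binding.

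Gene families were followed as 68 lists, drawn from the authors' gene descriptions and from RefSeq symbols and gene types. Of their 9342 members 3014 reached the test. Of these, 424 rose and 541 fell, in all 32.0%, beside 23.8% of all tested genes. The families with the largest shares that fell were XTH (70.8%), dirigent (64.7%), laccase (50.0%), PME and PMEI (44.2%) and MYB (42.5%). The largest shares that rose, among families with at least 10 tested members, were those of MATE (50.0%), the cysteine-rich peptides (50.0%), the small ROTUNDIFOLIA-like proteins (33.3%) and DOF (29.6%). The median log2 change over all 19565 genes was 0.02, and each family's median is read beside it. Each family's counts are likewise read beside the 11.0% that rose and the 12.9% that fell of all tested genes. The families were selected with results of these libraries known, and their counts are descriptions.

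**Figure D2:**
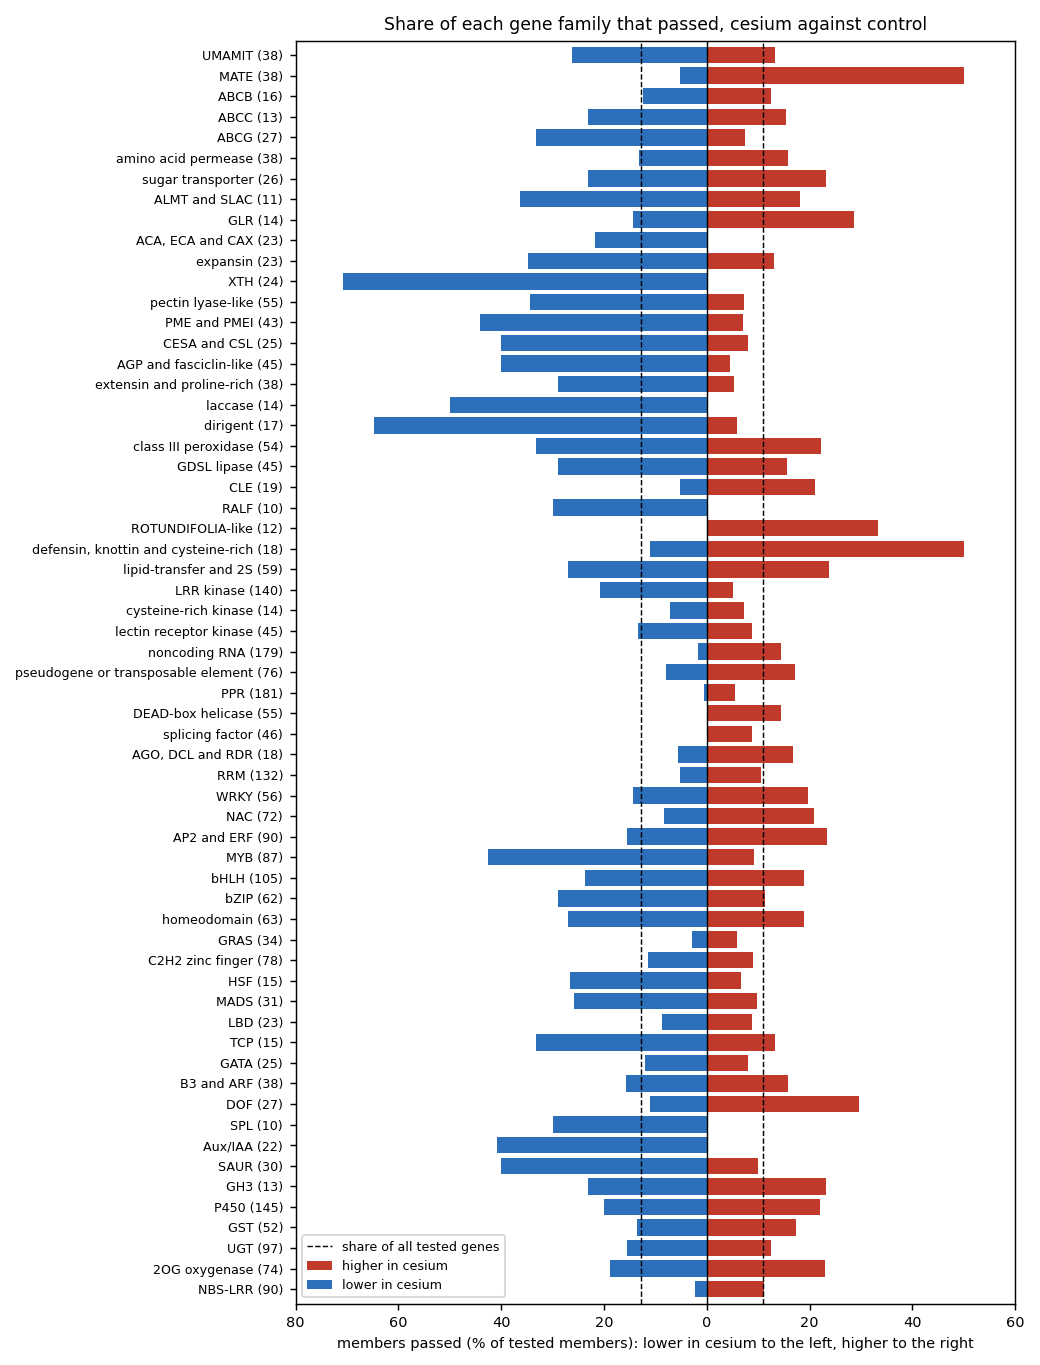
Each row is a gene family with at least 10 tested members (number in parentheses); the horizontal axis is the percentage of tested members that fell (blue, to the left) or rose (red, to the right) in cesium roots against control roots, and dashed lines mark 12.9% and 11.0%, the shares over all tested genes. XTH reaches furthest left at 70.8% and MATE and the cysteine-rich peptides furthest right at 50.0%.

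MATE proteins are antiporters that move organic molecules such as citrate, phenolics and toxins out of the cell or into the vacuole. Of 38 tested, 19 rose, 2 fell and 17 did not pass, with a median log2 change of 0.40. FRD3 (AT3G08040), which loads citrate into the xylem and so carries iron to the shoot, had 16.4, 11.7 and 14.4 FPKM in cesium roots, against 5.33, 5.77 and 7.23 FPKM in control roots (log2 change 1.09 ± 0.136, adjusted p = 0.000538). ZF14 (AT1G58340) had 15.5, 9.44 and 10.2 FPKM in cesium roots, against 4.22, 4.05 and 3.08 FPKM in control roots (log2 change 1.39 ± 0.178, adjusted p = 0.000623). The cesium libraries were above the control libraries in each, since members named for their change had to be without overlap. A row of 6 members lies on chromosome 2 between 1333133 and 1379130, and all of them rose: DTX1, a detoxification exporter, by 0.90, AT2G04050 by 1.87, AT2G04070 by 1.67, AT2G04080 by 1.27, AT2G04090 by 1.21 and AT2G04100 by 0.60 on the log2 scale. AT2G04050 had 10.8, 8.09 and 6.88 FPKM in cesium roots, against 0.960, 1.93 and 2.01 FPKM in control roots. DTX1, AT2G04070 and AT2G04080 stayed under 1 FPKM in every control library and reached the test only through their cesium values. A fall was hardly open to these genes, which count among the 19 that rose. AT2G04100 lost its call without cesium replicate 1 or without control replicate 1 or 3 (adjusted p 0.0527 to 0.0578). AT2G04050 and DTX1 shared no 50-base stretch, nor did AT2G04070 and AT2G04080. DTX1, AT2G04070, AT2G04080 and AT2G04100, like ALF5 and EDS5 here, were named after their values were seen. ALF5, which protects roots from toxic compounds, rose by 0.52 ± 0.0923 (adjusted p = 0.00367), whereas EDS5, the exporter that takes salicylic acid precursor out of the plastid, fell by -0.42 ± 0.0935 (adjusted p = 0.0105). The most abundant of the tested members, AT1G11670, had 53.3 ± 1.14 FPKM in cesium roots and 55.9 ± 2.46 FPKM in control roots (SD, n = 3 each) and did not pass.

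UMAMIT transporters move amino acids out of cells, and amino acid permeases take them up. Of 38 UMAMIT genes, 5 rose and 10 fell (median log2 change -0.16). UMAMIT17 (AT4G08300) had 3.60, 9.77 and 7.76 FPKM in cesium roots, against 31.3, 33.3 and 29.1 FPKM in control roots (log2 change -2.09 ± 0.300, adjusted p = 0.00114). UMAMIT14 (AT2G39510), which unloads amino acids from the phloem in the root, had 3.57, 7.92 and 6.33 FPKM in cesium roots, against 18.3, 20.7 and 20.8 FPKM in control roots (log2 change -1.65 ± 0.221, adjusted p = 0.000774). UMAMIT4 fell by -1.57 ± 0.189, and UMAMIT29 rose by 1.51 ± 0.243 on the log2 scale. SIAR1, the most abundant, had 189 ± 61.5 FPKM in cesium roots and 236 ± 17.4 FPKM in control roots (SD, n = 3 each) and did not pass.

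Of 38 amino acid permeases, 6 rose (15.8%) and 5 fell (13.2%), shares near the 11.0% and 12.9% of all tested genes, the count that fell being 3 without control replicate 2 and 2 without control replicate 3. AAP3 (AT1G77380), which takes up basic amino acids in the root vasculature, had 92.1, 48.6 and 58.3 FPKM in cesium roots, against 8.15, 10.4 and 11.4 FPKM in control roots (log2 change 2.58 ± 0.225, adjusted p = 8.74e-05). Cesium roots were thus higher in all 3 libraries, and low-potassium roots, with 30.5, 42.5 and 30.6 FPKM in low-potassium roots, lay between. AT5G02170 rose by 1.47 ± 0.164 and AT2G41190 fell by -1.33 ± 0.257. AAP6 rose by 0.62 ± 0.189 and lost its call without cesium replicate 1 or 2 or without control replicate 1 or 2 or without low potassium replicate 1 (adjusted p 0.0533 to 0.117). AAP2, at 463 to 622 FPKM in cesium roots and 511 to 586 FPKM in control roots, did not pass.

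Of 26 sugar transporters tested, 6 rose and 6 fell, the second count being 3 without control replicate 1 or 2 and 2 without control replicate 3. SUC2 (AT1G22710), the phloem-loading sucrose symporter, had 73.0, 47.8 and 45.8 FPKM in cesium roots, against 26.2, 31.6 and 24.2 FPKM in control roots (log2 change 0.97 ± 0.220, adjusted p = 0.0114). SUC1 (AT1G71880), a second sucrose symporter, had 112, 136 and 105 FPKM in cesium roots, against 69.0, 69.9 and 61.8 FPKM in control roots (log2 change 0.80 ± 0.138, adjusted p = 0.00317). SWEET11 (AT3G48740), a sucrose efflux carrier that works next to SUC2 in phloem, fell, with 15.9, 13.5 and 12.2 FPKM in cesium roots, against 46.1, 37.0 and 48.5 FPKM in control roots (log2 change -1.59 ± 0.175, adjusted p = 0.000279). Each of the 3 was separated between the groups without overlap, as required of members named for their change. PMT6, a polyol and monosaccharide transporter, rose by 0.75 ± 0.172, and PMT5 had 88.0 ± 20.3 FPKM in cesium roots and 108 ± 7.95 FPKM in control roots (SD, n = 3 each) without passing, except without cesium replicate 1 (adjusted p = 0.0477).

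ABCG transporters export lipids of suberin and wax, hormones and other compounds. Of 27 tested, 2 rose and 9 fell (median -0.09); leaving out single libraries gave 1 to 2 that rose and 6 to 9 that fell. ABCG6 (AT5G13580) and ABCG20 (AT3G53510), both needed for suberin in the root endodermis, fell. ABCG6 had 17.8, 17.7 and 18.5 FPKM in cesium roots, against 57.5, 58.9 and 66.0 FPKM in control roots (log2 change -1.70 ± 0.144, adjusted p = 7.43e-05), and ABCG20 had 8.95, 9.75 and 9.96 FPKM in cesium roots, against 21.9, 23.4 and 27.7 FPKM in control roots (log2 change -1.26 ± 0.127, adjusted p = 0.000163). Low-potassium roots were in between, with 38.9, 40.0 and 26.0 FPKM in low-potassium roots for ABCG6. ABCG22 and ABCG23 fell by -1.59 ± 0.113 and -1.34 ± 0.170 on the log2 scale. ABCG14 (AT1G31770), which sends root-made cytokinin to the shoot, rose, with 126, 109 and 97.0 FPKM in cesium roots, against 61.4, 71.2 and 69.3 FPKM in control roots (log2 change 0.70 ± 0.113, adjusted p = 0.00210).

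Of 16 ABCB genes 2 rose and 2 fell, the first count being 1 to 4 and the second 1 to 2 as libraries were left out in turn. Both shares were 12.5%, near the 11.0 and 12.9% of all genes. ABCB1, an auxin exporter, fell by -0.50 ± 0.0996 (adjusted p = 0.00605), and ABCB15 rose by 0.60 ± 0.136. Of 13 ABCC genes 2 rose (1 to 2 by library left out) and 3 fell (2 to 3), among them ABCC3, which rose by 0.67 ± 0.0868, and ABCC4 and ABCC5, which fell by -0.56 ± 0.105 and -0.49 ± 0.0907. Calcium pumps and cation exchangers (ACA, ECA and CAX) included 5 that fell and 18 that did not pass, of 23. CAX3, a vacuolar calcium exchanger, had 19.0, 15 and 16.2 FPKM in cesium roots, against 23.3, 26.9 and 27.6 FPKM in control roots (log2 change -0.60 ± 0.10, adjusted p = 0.00255), and low-potassium roots were above both, with 56.6, 59.0 and 61.3 FPKM in low-potassium roots. ECA2 fell by -0.68 ± 0.120, ACA9 by -1.01 ± 0.219 and AT5G57110, the plasma membrane pump ACA8, by -0.44 ± 0.0844. The fifth, AT4G37640, lost its call without cesium replicate 1, 2 or 3 or without control replicate 2 or 3 (adjusted p 0.0504 to 0.121). Of 11 ALMT and SLAC anion channels, 2 rose and 4 fell, SLAH3, a nitrate and chloride channel, rising by 0.46 ± 0.0992 and ALMT12 falling, with a log2 change of -0.87 ± 0.141. Of 14 glutamate receptor-like channels 4 rose and 2 fell, the first count being 2 without cesium replicate 3 or control replicate 1 or 3 and 1 without cesium replicate 2 or control replicate 2. GLR3.4 rose by 0.85 ± 0.138 and GLR3.5 fell by -0.51 ± 0.111.

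All 11 cell wall families had more members that fell than members that rose. The XTH enzymes cut and rejoin xyloglucan, the polymer that tethers cellulose, during cell expansion. Of 24 tested, 17 fell and 7 did not pass, with a median log2 change of -0.78, against 12.9% of all tested genes that fell. XTH17 (AT1G65310) had 9.25, 12 and 10.8 FPKM in cesium roots, against 43.9, 41.8 and 44.2 FPKM in control roots (log2 change -1.93 ± 0.155, adjusted p = 5.61e-05). XTH7 (AT4G37800) had 24.6, 26.0 and 25.3 FPKM in cesium roots, against 61.8, 55.3 and 99.1 FPKM in control roots (log2 change -1.43 ± 0.205, adjusted p = 0.00115). XTH12 (AT5G57530) had 7.46, 7.65 and 4.71 FPKM in cesium roots, against 19.5, 29.1 and 22.3 FPKM in control roots (log2 change -1.70 ± 0.341, adjusted p = 0.00639). The cesium libraries were under every control library in each, as the choice of members named for their change required. XTH14 fell by -1.55 ± 0.435, but the call was lost without cesium replicate 1 or 3 or without control replicate 2 or 3 (adjusted p 0.0531 to 0.0942). XTH31, the most abundant, had 202, 172 and 111 FPKM in cesium roots, against 228, 219.9 and 307 FPKM in control roots (adjusted p = 0.0552); its change passed the test without cesium replicate 1 (adjusted p = 0.0292). The other members that fell included XTH5, XTH13, XTH15, XTH18, XTH19, XTH24 and XTH30, named after their values were seen, with log2 changes of -1.06, -1.36, -0.91, -1.01, -1.09, -0.86 and -0.85.

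Expansins loosen the wall without cutting it. Of 23 tested, 3 rose (1 without cesium replicate 2 or control replicate 1 or 2 or low potassium replicate 1), and 8 fell (5 without control replicate 2). EXPA17 (AT4G01630) had 41.3, 37.6 and 27.3 FPKM in cesium roots, against 65.4, 74.2 and 97.1 FPKM in control roots (log2 change -1.14 ± 0.222, adjusted p = 0.00569), and EXPB1 fell by -1.06 ± 0.125. EXPA1 (AT1G69530) went the other way, with 132, 131 and 83.6 FPKM in cesium roots, against 58.7, 64.4 and 54.9 FPKM in control roots (log2 change 0.92 ± 0.167, adjusted p = 0.00401). EXPA18, a root hair expansin, fell by -1.20 ± 0.312 and lost its call without cesium replicate 3 or without control replicate 2 or 3 (adjusted p 0.0577 to 0.0740). EXPA4, the most abundant, had 339, 362 and 204 FPKM in cesium roots, against 242, 222 and 267 FPKM in control roots and did not pass with all libraries, but passed without cesium replicate 3 (adjusted p = 0.00678).

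Pectin is the gel between cellulose fibres. Pectin methylesterases (PMEs) remove its methyl groups, their inhibitors (PMEIs) block them, and many pectin lyase-like enzymes cut the backbone. Members of the pectin lyase-like list were taken by description and not by activity. Of 43 PME and PMEI genes 3 rose and 19 fell (median -0.39), with 12 without cesium replicate 1 or control replicate 3 among those that fell and 5 without cesium replicate 3 among those that rose. AT2G45220 had 34.0, 40.5 and 27.6 FPKM in cesium roots, against 132, 140.1 and 143 FPKM in control roots (log2 change -2.01 ± 0.228, adjusted p = 0.000325). AT5G04960 had 11.7, 13.3 and 7.30 FPKM in cesium roots, against 33.1, 44.0 and 39.9 FPKM in control roots (log2 change -1.80 ± 0.343, adjusted p = 0.00516). PME3, the most abundant, had 201 ± 26.2 FPKM in cesium roots and 267 ± 6.15 FPKM in control roots (SD, n = 3 each); it fell by -0.42 ± 0.122 and lost its call without cesium replicate 1 or 3 or without control replicate 1, 2 or 3 or without low potassium replicate 2 (adjusted p 0.0518 to 0.0992). Of 55 pectin lyase-like genes, 19 fell and 4 rose, the second count being 2 without cesium replicate 1 or 2 or control replicate 1 or 2 and 1 without control replicate 3. QRT1 and QRT2, known for separating pollen grains, fell by -1.05 ± 0.151 and -1.24 ± 0.112, and the neighbours AT1G05650 and AT1G05660 by -1.43 ± 0.236 and -1.09 ± 0.169. AT4G24780, the most abundant, had 216 ± 32.4 FPKM in cesium roots and 215 ± 15.4 FPKM in control roots (SD, n = 3 each) and did not pass.

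Cellulose is made at the plasma membrane by CESA complexes, and CSLC enzymes make the xyloglucan backbone in the Golgi. Of 25 CESA and CSL genes, 10 fell and 2 rose, the second count being 1 without cesium replicate 1 or 2 or control replicate 2 or 3 and 0 without control replicate 1. CESA1 (AT4G32410), a subunit of the primary wall complex, had 97.6, 107 and 115 FPKM in cesium roots, against 138, 147 and 172 FPKM in control roots (log2 change -0.51 ± 0.117, adjusted p = 0.0124). CESA2 and CESA5, its relatives in the same complex, fell by -0.64 ± 0.117 and -0.62 ± 0.121, and CSLC12 and CSLC04 by -0.76 ± 0.172 and -0.59 ± 0.118. The changes were of similar size, under 1 on the log2 scale, and all low-potassium values of CESA1 (104, 81.4 and 90.2 FPKM in low-potassium roots) were below every control library.

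Arabinogalactan proteins (AGPs) and their fasciclin-like relatives (FLAs) are surface proteins of growing cells, and of 45 tested 18 fell (median -0.48) and 2 rose, the second count being 1 without cesium replicate 1 or 3 or low potassium replicate 1, 2 or 3 and 0 without control replicate 2 or 3. Without cesium replicate 3, 23 fell. FLA13 (AT5G44130) had 2.02, 2.61 and 3.68 FPKM in cesium roots, against 10.6, 12.3 and 12.7 FPKM in control roots (log2 change -1.79 ± 0.226, adjusted p = 0.000569). AGP13 (AT4G26320) had 21.8, 27.1 and 38.5 FPKM in cesium roots, against 88.7, 76.7 and 74.6 FPKM in control roots (log2 change -1.46 ± 0.177, adjusted p = 0.000459). AGP22 fell by -1.23 ± 0.261 and FLA6, a root hair gene, by -1.77 ± 0.397; AGP31, the most abundant, had 642, 716 and 957 FPKM in cesium roots, against 947, 818 and 1251 FPKM in control roots and did not pass. Extensins are rod-like hydroxyproline-rich proteins cross-linked into the wall by peroxidases. Of 38 extensin and proline-rich genes 11 fell, 2 rose (1 to 2 by library left out) and 25 did not pass; the median was -0.92, and the count that fell was 18 without cesium replicate 3 or low potassium replicate 3. The authors' deposited q-values called 27 of them lower. PELPK2 (AT5G09520) had 54.9, 44.8 and 70.1 FPKM in cesium roots, against 162, 150.2 and 180.4 FPKM in control roots (log2 change -1.54 ± 0.145, adjusted p = 0.000123). PRP2 fell by -1.59 ± 0.273 and AT2G47530 by -1.43 ± 0.269. EXT13 fell by -1.44 ± 0.451 and lost its call without cesium replicate 1 or 2 or without control replicate 1, 2 or 3 or without low potassium replicate 2 (adjusted p 0.0560 to 0.147). EXT3, which builds the extensin scaffold, had 1101, 1207 and 2836 FPKM in cesium roots, against 2329, 2134 and 3229 FPKM in control roots; it did not pass with all libraries and passed without cesium replicate 3 (adjusted p = 0.00456), the library with the highest cesium value.

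Laccases oxidise lignin monomers in the wall and dirigent proteins guide their coupling. Of 14 laccases 7 fell and 7 did not pass (median -0.61). LAC3 (AT2G30210), which marks the Casparian strip domain, had 63.1, 69.6 and 73.7 FPKM in cesium roots, against 164, 158 and 192 FPKM in control roots (log2 change -1.30 ± 0.121, adjusted p = 0.000115). LAC13 (AT5G07130) had 16.6, 16.7 and 23.7 FPKM in cesium roots, against 51.0, 51.5 and 62.2 FPKM in control roots (log2 change -1.50 ± 0.149, adjusted p = 0.000151). LAC7 and LAC16 fell by -1.11 ± 0.189 and -1.13 ± 0.134. Of 17 dirigent genes 11 fell and 1 rose (median -0.60). AT2G21100 had 30.7, 25.9 and 28.8 FPKM in cesium roots, against 95.9, 89.8 and 106 FPKM in control roots (log2 change -1.74 ± 0.104, adjusted p = 1.12e-05). ESB1 (AT2G28670), the dirigent protein that organises lignin in the Casparian strip and is named here after its values were seen, had 80.5, 89.1 and 83.2 FPKM in cesium roots, against 163, 155 and 184 FPKM in control roots (log2 change -0.98 ± 0.0886, adjusted p = 0.000101). AT4G11210 fell by -1.54 ± 0.264 and AT3G55230 by -0.92 ± 0.174, while AT5G42510 lost its call without cesium replicate 1, 2 or 3 or without control replicate 1, 2 or 3 or without low potassium replicate 2 (adjusted p 0.0510 to 0.127). DIR5 rose, with 4.83, 9.02 and 3.17 FPKM in cesium roots, against 1.04, 0.911 and 0.810 FPKM in control roots (log2 change 1.70 ± 0.268, adjusted p = 0.00188). CASP1, an endodermal marker that builds the strip's membrane domain, fell too, by -1.14 on the log2 scale. SCR and MYB36, endodermal genes among the same root markers, did not pass. Their log2 changes were 0.23 (adjusted p = 0.320) and -0.3 (adjusted p = 0.161). Fewer endodermal cells and less RNA per cell cannot be told apart.

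Class III peroxidases, which make and use hydrogen peroxide in the wall, moved both ways: of 54 tested 12 rose and 18 fell (median -0.41). The count that rose was 7 without control replicate 1 or 2, and the count that fell was 11 without control replicate 2 or 3. AT1G49570 had 87.0, 87.6 and 57.3 FPKM in cesium roots, against 11.8, 24.9 and 20.3 FPKM in control roots (log2 change 2.00 ± 0.317, adjusted p = 0.00195), and PA2 (AT5G06720) had 44.2, 29.9 and 23.2 FPKM in cesium roots, against 7.36, 7.53 and 8.97 FPKM in control roots (log2 change 1.86 ± 0.240, adjusted p = 0.000654). AT5G15180 had 16.3, 18.2 and 22.0 FPKM in cesium roots, against 76.1, 75.8 and 74.9 FPKM in control roots (log2 change -1.96 ± 0.122, adjusted p = 1.37e-05), and AT3G01190 had 67.6, 95.2 and 67.0 FPKM in cesium roots, against 258, 265 and 321 FPKM in control roots (log2 change -1.88 ± 0.175, adjusted p = 0.000119). In each the groups did not overlap, as required of members named for their change and as for 41.3% of all tested genes. PRXR1, at 1587 to 2234 FPKM in cesium roots and 2448 to 2721 FPKM in control roots, did not pass (adjusted p = 0.0999). GDSL lipases, an esterase family with members that polymerise and degrade suberin and cutin, included 7 that rose and 13 that fell of 45. AT2G23540 had 55.8, 48.4 and 53.2 FPKM in cesium roots, against 151, 142 and 181 FPKM in control roots (log2 change -1.57 ± 0.137, adjusted p = 8.74e-05). AT1G74460, AT3G50400 and AT1G28660 fell by -1.50 ± 0.150, -1.38 ± 0.160 and -1.18 ± 0.111, and GLL22, the most abundant, rose by 0.93 ± 0.123.

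**Figure D3:**
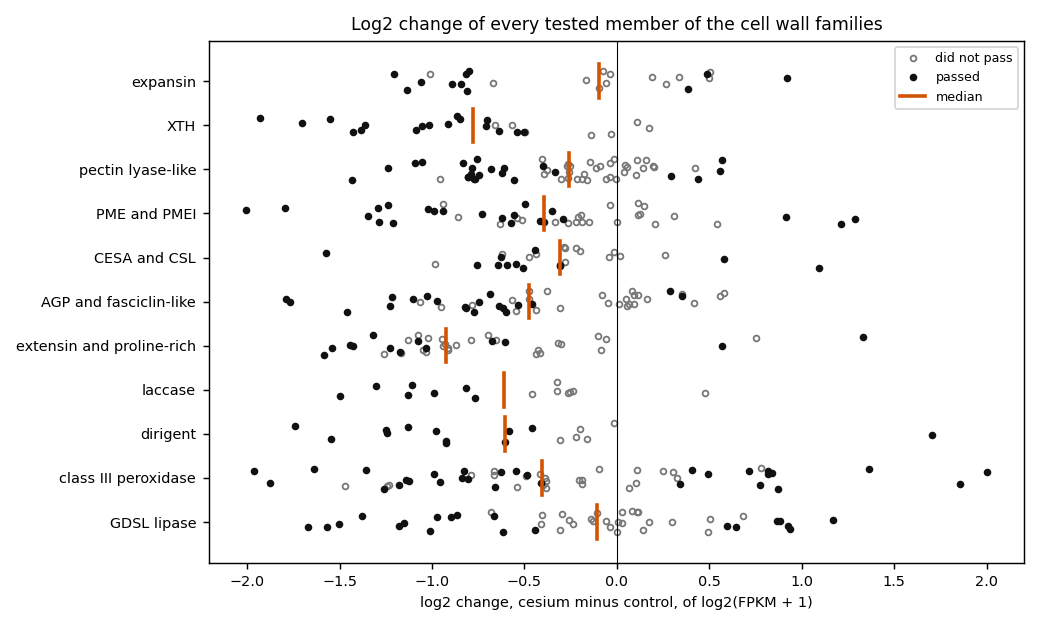
Each point is a tested member of one of 11 cell wall families (rows), placed by its log2 change, cesium over control (horizontal axis); filled points passed the test, open points did not, and orange bars are family medians. The XTH points lie mostly left of 0 around a median of -0.78, while peroxidase points reach from -1.96 to 2.00.

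Phytosulfokine (PSK) is a sulfated growth peptide cut from larger precursors and sensed by receptor kinases at the cell surface. Of 6 genes 5 were tested, 4 rose and 1 fell. PSK2 (AT2G22860) had 276, 141 and 177 FPKM in cesium roots, against 30.0, 21.2 and 28.7 FPKM in control roots (log2 change 2.80 ± 0.265, adjusted p = 0.000124), and cesium roots were also above low-potassium roots (37.3, 64.1 and 39.7 FPKM in low-potassium roots; log2 change 2.03 ± 0.265, adjusted p = 0.000462). PSK5 (AT5G65870) had 25.8, 23.4 and 25.6 FPKM in cesium roots, against 11.4, 11.6 and 14.5 FPKM in control roots (log2 change 0.95 ± 0.110, adjusted p = 0.000371), and PSK1 rose by 0.63 ± 0.121. PSK4 rose by 0.84 ± 0.247, but its call was lost without cesium replicate 1 or 3 or without control replicate 1, 2 or 3 (adjusted p 0.0516 to 0.122). PSK3 (AT3G44735) was the member that fell, with 23.1, 21.1 and 21.2 FPKM in cesium roots, against 39.3, 29.4 and 35.5 FPKM in control roots (log2 change -0.64 ± 0.111, adjusted p = 0.00312). For PSK5 every low-potassium library was above every cesium library (28.0, 34.8 and 32.2 FPKM in low-potassium roots), whereas those of PSK4 (48.8, 75.6 and 53.9 FPKM in low-potassium roots) overlapped them.

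Cysteine-rich peptides of the defensin, knottin and LCR types are small secreted proteins, many of them antimicrobial. Of 211 genes only 18 reached the test; 9 rose and 2 fell (median 0.71). After LCR85, given above, the largest rise was that of AT2G43530, a knottin, with 66.4, 48.5 and 36.7 FPKM in cesium roots, against 6.23, 3.63 and 5.21 FPKM in control roots (log2 change 3.08 ± 0.220, adjusted p = 3.05e-05). AT4G22212, which lies next to LCR85 on chromosome 4 (11753842 to 11754752), had 153, 128 and 341 FPKM in cesium roots, against 62.5, 53.2 and 54.9 FPKM in control roots (log2 change 1.71 ± 0.307, adjusted p = 0.00374). Cesium replicate 3 held the highest value for it, as for LCR85. Of the further defensin-like genes of that row, AT4G22230 rose by 0.78 ± 0.0969, and AT4G22214, AT4G22217 and AT4G22235 did not pass; these neighbours were named after their values were seen. LCR69 (AT2G02100), the most abundant, had 850.4, 698 and 696 FPKM in cesium roots, against 363, 301 and 387 FPKM in control roots (log2 change 1.09 ± 0.133, adjusted p = 0.000460), and all low-potassium libraries were above the controls too (668, 812 and 716 FPKM in low-potassium roots).

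ROTUNDIFOLIA-like (RTFL) genes encode small proteins that restrain cell proliferation along an organ's axis when over-produced. Of 12 tested 4 rose and 8 did not pass, the first count being 2 without cesium replicate 2 or control replicate 1 or 2. RTFL7 (AT3G55515) had 23.8, 13.3 and 14.9 FPKM in cesium roots, against 1.10, 1.55 and 1.50 FPKM in control roots (log2 change 2.91 ± 0.188, adjusted p = 1.75e-05). RTFL8 (AT2G39705) had 34.6, 21.7 and 29.6 FPKM in cesium roots, against 13.1, 11.0 and 14.3 FPKM in control roots (log2 change 1.09 ± 0.158, adjusted p = 0.00122). Both kept their calls whichever library was left out, whereas RTFL5 lost its call without cesium replicate 2 or 3 or without control replicate 1, 2 or 3 or without low potassium replicate 2 or 3 (adjusted p 0.0534 to 0.116) and RTFL17 without cesium replicate 2 or 3 or without control replicate 1 or 2 or without low potassium replicate 1 (adjusted p 0.0567 to 0.138).

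RALF peptides raise the pH outside the cell and restrain elongation through FERONIA-type receptors. Of 10 tested, 3 fell (5 without cesium replicate 3) and 7 did not pass. RALF1 (AT1G02900) had 78.2, 64.6 and 76.7 FPKM in cesium roots, against 129, 135 and 139 FPKM in control roots (log2 change -0.88 ± 0.0857, adjusted p = 0.000140). RALFL27 and RALFL22 fell by -1.14 ± 0.177 and -0.59 ± 0.127. Their receptors, the CrRLK1L kinases, include THE1 (AT5G54380), a sensor of wall integrity, with 11.1, 12.6 and 13.4 FPKM in cesium roots, against 18.4, 18.9 and 22.1 FPKM in control roots (log2 change -0.64 ± 0.111, adjusted p = 0.00331); FERONIA itself (FER) had 60.7 ± 6.54 FPKM in cesium roots and 73.0 ± 7.07 FPKM in control roots (SD, n = 3 each; adjusted p = 0.104). HERK2 fell, a call lost without cesium replicate 1 or without control replicate 2 or 3 (adjusted p 0.0653 to 0.0817). In all, 2 of 7 fell, 1 to 3 by library left out. CLE peptides signal in meristems and vascular tissue. Of 19 tested 4 rose (2 without control replicate 1 and 1 without control replicate 2) and 1 fell (0 to 2 by library left out). CLE26 (AT1G69970) had 5.62, 4.21 and 4.60 FPKM in cesium roots, against 2.15, 2.44 and 3.18 FPKM in control roots (log2 change 0.70 ± 0.135, adjusted p = 0.00551), and it alone of the called CLE genes kept its call whichever library was left out. The call was lost by CLE2 without cesium replicate 1 or 2 or without control replicate 1 or 3 (adjusted p 0.0597 to 0.0997), by CLE4 without cesium replicate 2 or without control replicate 1 or 2 (adjusted p 0.0829 to 0.0968), by CLE14 without control replicate 1 or 2 (adjusted p 0.0543 to 0.0565) and by CLE20 without cesium replicate 1 or without control replicate 2 (adjusted p 0.0598 to 0.0653). RGF1 (AT5G60810), a peptide that maintains the root stem cell niche, had 2.34, 3.59 and 3.62 FPKM in cesium roots, against 1.48, 1.31 and 1.23 FPKM in control roots (log2 change 0.82 ± 0.157, adjusted p = 0.00505); it was 1 of 7 RGF and CLEL genes tested and the other 6 did not pass.

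**Figure D4:**
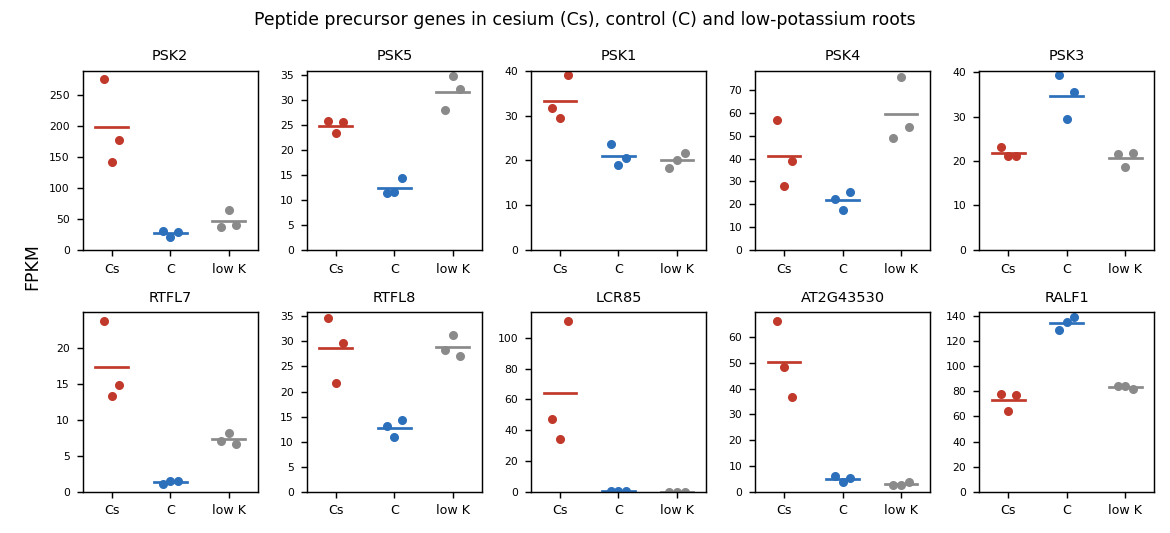
Panels show FPKM (vertical axis) of 10 peptide genes in cesium, control and low-potassium roots; points are libraries and lines are group means. PSK2, RTFL7 and LCR85 stand highest in cesium roots, whereas PSK5 and PSK4 have their highest mean in low-potassium roots and RALF1 in control roots.

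Lipid-transfer and 2S albumin-like proteins carry lipids to the wall and cuticle. Of 59 tested 14 rose and 16 fell, with 8 that rose and 11 that fell by at least 1 on the log2 scale. Beside AIR1 and its relatives, LTP4 (AT5G59310) had 2.36, 3.08 and 4.12 FPKM in cesium roots, against 22.6, 17.3 and 16.9 FPKM in control roots (log2 change -2.26 ± 0.158, adjusted p = 2.85e-05).

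Among receptor kinases, of 140 leucine-rich repeat (LRR) kinases, 29 fell (19 without cesium replicate 1 or control replicate 2 or 3) and 7 rose (4 without cesium replicate 2 or control replicate 2 or 3). GSO1 (AT4G20140), also known as SCHENGEN3, the receptor that places the Casparian strip, had 6.86, 9.24 and 9.29 FPKM in cesium roots, against 19.7, 21.9 and 23.9 FPKM in control roots (log2 change -1.28 ± 0.122, adjusted p = 0.000132). AT5G59680, AT2G15300 and AT5G24100 fell by -1.35 ± 0.156, -1.16 ± 0.163 and -1.04 ± 0.145. The other receptor lists held few calls. Of 45 lectin receptor kinases 4 rose (1 to 5 by library left out) and 6 fell (1 to 6). These shares, 8.89 and 13.3%, were near the 11.0 and 12.9% of all genes. AT5G60270 rose by 1.08 ± 0.163. Of 9 wall-associated kinases 2 rose (1 to 3) and 3 fell (0 to 3); AT4G31100 rose by 0.45 ± 0.0909. Of 14 cysteine-rich kinases CRK28 rose by 0.80 ± 0.129 and CRK11 fell by -0.67 ± 0.142, shares of 7.14% each and under those of all genes.

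RNA genes were few among the tested. Of 179 long non-coding RNAs, 26 rose and 3 fell (median 0.22); the count that rose was 17 without control replicate 3 and 15 without control replicate 2, and the count that fell was 8 without cesium replicate 3. AT1G67105 had 23.3, 15.3 and 28.2 FPKM in cesium roots, against 7.73, 5.02 and 5.37 FPKM in control roots (log2 change 1.70 ± 0.213, adjusted p = 0.000542). AT1G31935 had 12.7, 15.5 and 25.0 FPKM in cesium roots, against 43.4, 41.5 and 42.7 FPKM in control roots (log2 change -1.27 ± 0.188, adjusted p = 0.00138). The values of both groups were apart in each, a condition for naming them by their change. AT1G55525 and AT1G15405 rose by 1.50 ± 0.262 and 1.68 ± 0.330. Many of these RNAs overlap or lie antisense to coding genes: 116 of the 179 share a region with another gene or span one. Of 14 small nuclear, nucleolar and transfer RNAs tested, 12 were listed at 0 in at least 1 of the 6 libraries, and limma called 0; 2 had an unadjusted p under 0.05 and the authors' q-values called 2 higher. SNOR108 shows the kind of value they held, listed at 1199.6 FPKM in cesium replicate 3 and at 0 in the other 5. Of 76 transposable element genes and pseudogenes 13 rose and 6 fell. AT2G04460 had 0.0343, 0.105 and 0.0348 FPKM in cesium roots, against 6.91, 4.64 and 9.43 FPKM in control roots (log2 change -2.87 ± 0.202, adjusted p = 2.85e-05), with all low-potassium libraries at 0. AT3G28160 fell by -1.68 ± 0.199 and AT1G35612 rose by 0.89 ± 0.178.

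In each list of proteins that act on RNA more genes rose than fell, mostly by less than 1 on the log2 scale. The shares that rose were 5.52% (pentatricopeptide repeat), 8.7% (splicing), 10.6% (RNA recognition motif), 14.5% (DEAD-box) and 16.7% (small RNA pathway). Those that fell were 0.552, 0, 5.3, 0 and 5.56% in the same order. Of all genes 11.0% rose and 12.9% fell. Pentatricopeptide repeat (PPR) proteins edit and stabilise organelle transcripts. Of 181 tested, 10 rose and 1 fell (0 to 1 by library left out; median 0.18), and the count that rose was 5 without cesium replicate 2 or control replicate 1 or 2. A share of 5.52% that rose was below the 11.0% of all genes. emb1796 (AT3G49240) had 15.5, 17.2 and 17.1 FPKM in cesium roots, against 11.6, 11.6 and 12.6 FPKM in control roots (log2 change 0.44 ± 0.0751, adjusted p = 0.00282), the largest change among the named PPR genes. AT1G09900 lost significance without cesium replicate 2 or 3 or without control replicate 1, 2 or 3 (adjusted p 0.0539 to 0.0831), DYW1 without cesium replicate 1, 2 or 3 or without control replicate 1, 2 or 3 or without low potassium replicate 1 or 3 (adjusted p 0.0547 to 0.147) and EMB3141, which fell, without cesium replicate 1, 2 or 3 or without control replicate 1, 2 or 3 or without low potassium replicate 1 or 3 (adjusted p 0.0523 to 0.124).

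Of 55 DEAD-box RNA helicases 8 rose and 47 did not pass, the first count being 5 without cesium replicate 1 or control replicate 3, 3 without control replicate 1 and 2 without control replicate 2. AT5G65900 had 21.3, 20.1 and 24.5 FPKM in cesium roots, against 16.0, 16.8 and 13.8 FPKM in control roots (log2 change 0.47 ± 0.0984, adjusted p = 0.00776). STRS1 lost its call without control replicate 2 or 3 (adjusted p 0.0620 to 0.0977), ABO6 without cesium replicate 1 or 2 or without control replicate 1 or 2 (adjusted p 0.0510 to 0.0934) and AT2G01130 without cesium replicate 3 or without control replicate 1 or 3 (adjusted p 0.0511 to 0.0653). Of 46 splicing factors 4 rose and 42 did not pass, the first count being 7 without cesium replicate 3, 2 without cesium replicate 1 or control replicate 3 and 1 without control replicate 2. RSZ21, a serine/arginine-rich splicing factor, had 53.4, 52.4 and 60.3 FPKM in cesium roots, against 43.2, 37.7 and 32.7 FPKM in control roots (log2 change 0.54 ± 0.111, adjusted p = 0.00707). SCL30A lost its call without control replicate 2 or 3 (adjusted p 0.0551 to 0.0735), RS31a without cesium replicate 1 or 2 or without control replicate 2 or 3 or without low potassium replicate 2 (adjusted p 0.0513 to 0.117) and AT5G51300 without cesium replicate 1 or 2 or without control replicate 1 or 2 (adjusted p 0.0541 to 0.102).

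Of 132 RNA recognition motif proteins 14 rose and 7 fell, among them AT4G13860, with 161, 118 and 133 FPKM in cesium roots, against 37.7, 37.6 and 39.2 FPKM in control roots (log2 change 1.81 ± 0.106, adjusted p = 1.12e-05). Of 18 small RNA pathway genes 3 rose (2 to 4 by library left out) and 1 fell (0 to 1). AGO10 (AT5G43810), an ARGONAUTE that sequesters miR166 in shoot meristems, had 24.7, 25.3 and 24.5 FPKM in cesium roots, against 15.2, 15.7 and 13.7 FPKM in control roots (log2 change 0.70 ± 0.0756, adjusted p = 0.000243). DCL3, which makes the small RNAs of DNA methylation, rose by 0.62 ± 0.114. AGO7 rose, a call lost without control replicate 2 (adjusted p = 0.0548), and AGO1, the main microRNA effector, fell by -0.32 ± 0.0829 and lost its call without control replicate 2 or 3 (adjusted p 0.0651 to 0.0859).

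Among transcription factors, of 87 MYB genes tested 37 fell (42.5%, beside 12.9% of all genes), 42 did not pass and 8 rose, the last count being 5 without cesium replicate 2 or control replicate 2 or low potassium replicate 1 and 4 without cesium replicate 1 or control replicate 3 (median -0.22). MYB19 (AT5G52260) had 1.01, 1.03 and 2.49 FPKM in cesium roots, against 9.15, 7.39 and 8.18 FPKM in control roots (log2 change -1.93 ± 0.195, adjusted p = 0.000162). MYB49 (AT5G54230) had 4.87, 5.93 and 7.16 FPKM in cesium roots, against 14.5, 14.5 and 19.7 FPKM in control roots (log2 change -1.30 ± 0.146, adjusted p = 0.000302), and MYB40 fell by -1.32 ± 0.134. MYB121 fell and lost its call without cesium replicate 2 or without control replicate 1 or 2 (adjusted p 0.0674 to 0.0757), and MYB59, which controls potassium and nitrate transport to the shoot and was the most abundant, rose by 0.55 ± 0.141 and lost its call without cesium replicate 1 or without control replicate 2 or 3 (adjusted p 0.0587 to 0.0731). Some factors known for regulating suberin were picked out among those that fell, after their values were seen and from no list of such regulators, so they stand for themselves only: MYB41 by -1.11 ± 0.160, MYB53 by -1.20 ± 0.170, MYB93 by -0.68 ± 0.154, MYB9 by -0.79 ± 0.118, MYB107 by -0.77 ± 0.127 and MYB39 by -0.71 ± 0.119. MYB41 had 4.69, 2.99 and 5.17 FPKM in cesium roots, against 10.6, 8.92 and 11.4 FPKM in control roots. MYB92, another of them, fell by -0.67 ± 0.177 and lost its call without cesium replicate 1 or 2 or without control replicate 1 or 3 (adjusted p 0.0505 to 0.0850).

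AP2 and ERF factors, many of which respond to ethylene, wounding or stress, rose in 21 and fell in 14 of 90 genes; the counts were 13 without control replicate 2 or 3 for the rise and 9 without control replicate 2 for the fall. Rap2.6L (AT5G13330), linked to wound repair and regeneration (chromosome 5, 4271730 to 4274674), had 249, 144 and 178 FPKM in cesium roots, against 22.8, 25.2 and 21.6 FPKM in control roots (log2 change 2.95 ± 0.181, adjusted p = 1.31e-05). Low-potassium roots were between, with 63.9, 85.6 and 77.5 FPKM in low-potassium roots. RAP2.4, the most abundant, had 225, 208 and 176 FPKM in cesium roots, against 126, 115 and 129 FPKM in control roots (log2 change 0.71 ± 0.120, adjusted p = 0.00285). AT1G64380 and tny fell by -1.34 ± 0.143 and -1.10 ± 0.10. RAP2.11, a regulator of the root's low-potassium response, had 17.2, 20.4 and 13.6 FPKM in cesium roots, against 35.5, 50.5 and 56.5 FPKM in control roots and fell, but lost its call without cesium replicate 3 or without control replicate 2 or 3 (adjusted p 0.0511 to 0.0713).

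The largest rises among the named transcription factors were in the bHLH family. Of 105 tested 20 rose (13 without control replicate 1, 12 without control replicate 3, 11 without cesium replicate 1 and 10 without control replicate 2) and 25 fell (15 without control replicate 3). AT2G40200 had 47.8, 23.1 and 28.8 FPKM in cesium roots, against 2.11, 2.18 and 2.33 FPKM in control roots (log2 change 3.35 ± 0.213, adjusted p = 1.59e-05). AT4G37850 had 44.4, 40.1 and 29.5 FPKM in cesium roots, against 3.69, 4.68 and 3.26 FPKM in control roots (log2 change 2.99 ± 0.159, adjusted p = 6.38e-06), and its low-potassium values overlapped those of the controls (3.02, 3.76 and 3.49 FPKM in low-potassium roots). RSL2 (AT4G33880), which drives root hair growth, fell, with 2.60, 4.86 and 1.56 FPKM in cesium roots, against 9.48, 13.1 and 13.6 FPKM in control roots (log2 change -1.77 ± 0.306, adjusted p = 0.00312). RHD6, a marker of hair cells, fell by -0.56 on the log2 scale, and GL2, which marks non-hair epidermal cells and represses hair fate, by -0.54.

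NAC and WRKY factors are known mostly from stress, senescence and defence. Of 72 NAC genes 15 rose (9 without control replicate 1) and 6 fell, shares of 20.8 and 8.33% beside 11.0 and 12.9% of all genes. AT3G15500 had 13.5, 7.51 and 6.30 FPKM in cesium roots, against 0.809, 2.38 and 1.58 FPKM in control roots (log2 change 1.94 ± 0.283, adjusted p = 0.00123), its neighbour AT3G15510 rose by 1.42 ± 0.181, and NAC042, also known as JUNGBRUNNEN1, by 1.28 ± 0.195. NAC074 fell by -1.31 ± 0.241. Of 56 WRKY genes 11 rose (7 without cesium replicate 1 or control replicate 1) and 8 fell, shares of 19.6 and 14.3%. WRKY45 (AT3G01970), an activator of phosphate uptake, had 44.7, 27.1 and 25.4 FPKM in cesium roots, against 9.68, 10.6 and 8.27 FPKM in control roots (log2 change 1.63 ± 0.191, adjusted p = 0.000382). WRKY54 (AT2G40750), a regulator of senescence and defence, had 1.58, 2.19 and 2.07 FPKM in cesium roots, against 7.92, 7.82 and 9.55 FPKM in control roots (log2 change -1.68 ± 0.142, adjusted p = 7.43e-05). WRKY31 rose by 0.95 ± 0.157 and WRKY43 fell by -1.36 ± 0.251.

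MADS factors included flowering regulators that are also expressed in roots. Of 31 tested 8 fell (5 without control replicate 3) and 3 rose (2 to 4 by library left out). AGL14 (AT4G11880), which acts in root meristem patterning, had 8.15, 9.19 and 12.1 FPKM in cesium roots, against 34.6, 31.6 and 28.3 FPKM in control roots (log2 change -1.60 ± 0.133, adjusted p = 6.58e-05). AGL20 (AT2G45660), the floral integrator SOC1, had 9.53, 8.65 and 9.88 FPKM in cesium roots, against 29.1, 27.6 and 27.6 FPKM in control roots (log2 change -1.49 ± 0.106, adjusted p = 3.05e-05). AGL19 and AGL42, both related to AGL20, fell by -1.53 ± 0.123 and -1.04 ± 0.152. In these genes no cesium library reached the lowest control library, as required of members named for their change. AGL26 rose and lost its call without cesium replicate 2 or 3 or without control replicate 2 or 3 (adjusted p 0.0612 to 0.105).

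**Figure D5:**
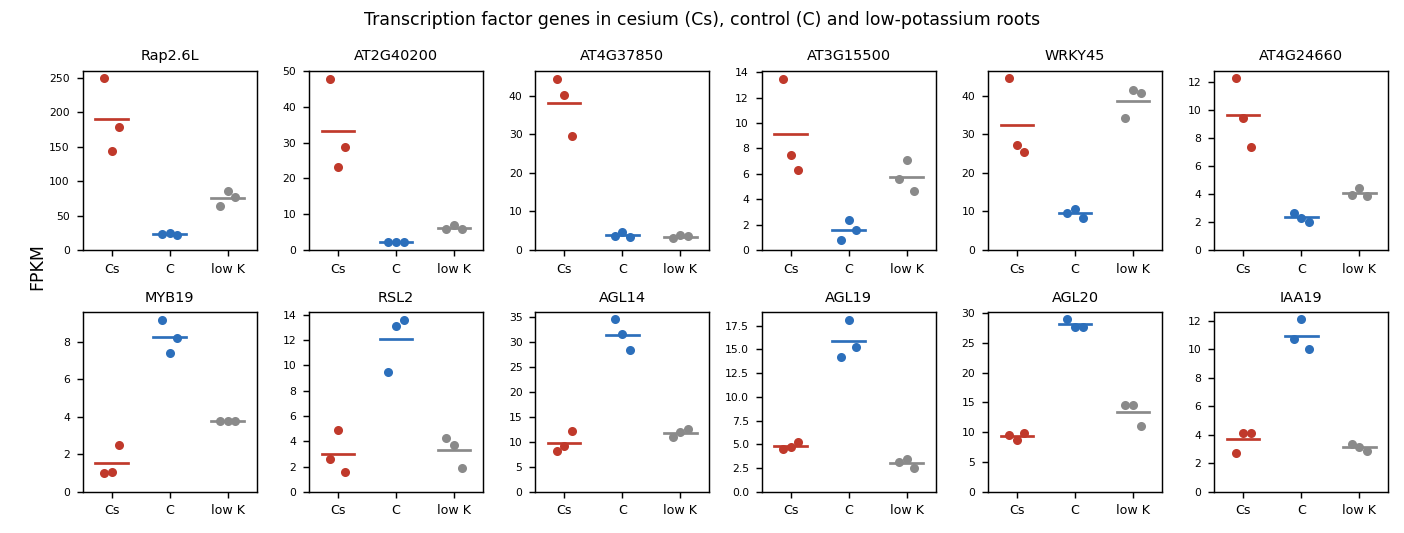
Panels show FPKM (vertical axis) of 12 transcription factor and auxin response genes in cesium, control and low-potassium roots; points are libraries and lines are group means. Rap2.6L, AT2G40200 and AT4G37850 are highest in cesium roots, and AGL14, AGL19, AGL20 and MYB19 are highest in control roots.

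Among homeodomain factors 12 rose and 17 fell (11 without control replicate 3) of 63. AT4G24660 had 12.3, 9.40 and 7.33 FPKM in cesium roots, against 2.67, 2.31 and 2.02 FPKM in control roots (log2 change 1.66 ± 0.160, adjusted p = 0.000137). WOX7, a repressor of lateral root formation, rose by 1.03 ± 0.204, and AT2G18550 and HB40 fell by -1.49 ± 0.267 and -0.91 ± 0.203. Of 62 bZIP factors 18 fell and 7 rose, the second count being 4 without cesium replicate 1 or control replicate 1 or 3, 3 without control replicate 2 and 2 without cesium replicate 2. bZIP2 had 241, 276 and 249 FPKM in cesium roots, against 353, 329.5 and 356 FPKM in control roots (log2 change -0.44 ± 0.0921, adjusted p = 0.00790), and bZIP1, a sensor of sugar starvation, rose by 0.94 ± 0.187. Of 27 DOF factors 8 rose and 3 fell, the second count being 1 without cesium replicate 1 or 2 or control replicate 1 or 2. Without cesium replicate 3, 12 rose. DAG1, known from seed germination, had 72.5, 56.6 and 59.0 FPKM in cesium roots, against 32.5, 34.7 and 38.3 FPKM in control roots (log2 change 0.81 ± 0.104, adjusted p = 0.000630), and DOF6, AT2G28510 and DOF2.4 rose by 0.85 ± 0.122, 0.67 ± 0.0842 and 0.65 ± 0.138.

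Of 78 C2H2 zinc finger genes 7 rose (5 to 10 by library left out) and 9 fell (6 to 10). ZFP5, which promotes root hairs, had 73.4, 41.6 and 28.6 FPKM in cesium roots, against 12.9, 15.7 and 13.7 FPKM in control roots (log2 change 1.59 ± 0.276, adjusted p = 0.00314), and AT5G43540 fell by -1.12 ± 0.0923. Of 34 GRAS genes 2 rose (2 to 4) and 1 fell (1 to 3); the DELLA protein RGL3 rose by 0.66 ± 0.111. Of 15 heat shock factors 1 rose and 4 fell, HSFA6B by -1.49 ± 0.275. Of 15 TCP genes 2 rose (1 to 2) and 5 fell (4 to 6). The relatives TCP2, TCP3 and TCP4, which promote cell differentiation in leaves, fell by -0.95 ± 0.179, -1.07 ± 0.161 and -0.91 ± 0.135. Of 23 LBD genes 2 rose (0 to 3) and 2 fell, LBD29, a lateral root gene, by -0.89 ± 0.201 and LBD14 by -1.28 ± 0.256. Of 10 SPL genes 3 fell (2 to 5) and 7 did not pass, SPL15 falling by -1.0 ± 0.191. Of 25 GATA genes 2 rose (0 to 2) and 3 fell (1 to 4), BME3 by -0.35 ± 0.0681.

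Aux/IAA and SAUR genes fell more often than they rose. Aux/IAA proteins repress auxin response factors (ARFs) and are themselves induced by auxin. Of 22 tested 9 fell and 13 did not pass (median -0.36). IAA19 (AT3G15540) had 2.75, 4.15 and 4.14 FPKM in cesium roots, against 10.7, 12.1 and 10.0 FPKM in control roots (log2 change -1.36 ± 0.136, adjusted p = 0.000155). IAA14 (AT4G14550), known as SOLITARY-ROOT for its block of lateral roots when stabilised, had 7.56, 8.78 and 4.68 FPKM in cesium roots, against 13.7, 18.3 and 16.5 FPKM in control roots (log2 change -1.13 ± 0.189, adjusted p = 0.00263). AXR3 and IAA7 fell by -0.95 ± 0.144 and -0.95 ± 0.133, and IAA9, the most abundant, had 235 ± 14.5 FPKM in cesium roots and 274 ± 17.5 FPKM in control roots (SD, n = 3 each) without passing. Of 30 SAUR genes, small auxin-induced promoters of cell expansion, 12 fell and 3 rose (median -0.34). AT1G72430 had 28.4, 29.3 and 30.1 FPKM in cesium roots, against 62.3, 52.1 and 62.0 FPKM in control roots (log2 change -0.98 ± 0.108, adjusted p = 0.000285), and AT4G31320 and AT5G10990 fell by -0.88 ± 0.120 and -0.80 ± 0.131. AT1G75580 rose by 1.02 ± 0.160.

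Of 38 B3 and ARF genes 6 rose (3 without control replicate 2 or 3) and 6 fell. Both shares were 15.8%, beside 11.0 and 12.9% of all genes. MP (AT1G19850), the auxin response factor MONOPTEROS that patterns the embryo and vasculature, had 36.6, 33.8 and 30.2 FPKM in cesium roots, against 17.0, 17.8 and 16.4 FPKM in control roots (log2 change 0.93 ± 0.0839, adjusted p = 9.89e-05). ARF9 (AT4G23980) had 24.4, 25.7 and 28.4 FPKM in cesium roots, against 46.4, 50.0 and 56.7 FPKM in control roots (log2 change -0.94 ± 0.0933, adjusted p = 0.000151). ARF2 and ARF18 fell by -0.42 ± 0.0809 and -0.53 ± 0.122. GH3 enzymes join amino acids to auxin and related acids; of 13 tested 3 rose and 3 fell. AT5G13370, near Rap2.6L on chromosome 5 (4286740 to 4289663), had 17.8, 14.1 and 13.5 FPKM in cesium roots, against 1.79, 2.94 and 2.08 FPKM in control roots (log2 change 2.31 ± 0.148, adjusted p = 1.62e-05), and all low-potassium libraries were above the controls too (17.4, 20.2 and 20.9 FPKM in low-potassium roots). Its neighbour AT5G13360 rose by 0.54 ± 0.0852. BRU6, an auxin-conjugating GH3, fell by -1.02 ± 0.129; DFL1 fell, a call lost without cesium replicate 1 or 3 or without control replicate 2 or 3 (adjusted p 0.0710 to 0.0922), and GH3.17 rose and lost its call without cesium replicate 1 or 2 or without control replicate 1, 2 or 3 (adjusted p 0.0529 to 0.0747).

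Cytochromes P450 make and break down hormones, sterols and defence compounds. Of 145 tested 32 rose and 29 fell, the second count being 19 without control replicate 2, and 14 rose and 11 fell by at least 1 on the log2 scale. Without cesium replicate 3, 47 rose. CYP735A2 (AT1G67110), which makes trans-zeatin cytokinins in roots, had 105, 59.3 and 47.7 FPKM in cesium roots, against 6.26, 9.01 and 5.44 FPKM in control roots (log2 change 3.12 ± 0.265, adjusted p = 7.47e-05). ABCG14, which exports those cytokinins, rose as given above. CYP707A4 (AT3G19270), an abscisic acid hydroxylase, had 14.7, 7.65 and 6.68 FPKM in cesium roots, against 0.0572, 0.198 and 0.117 FPKM in control roots (log2 change 3.18 ± 0.243, adjusted p = 4.47e-05).

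Of 52 glutathione S-transferases 9 rose (4 to 13 by library left out) and 7 fell (4 to 7). GSTF7 (AT1G02920) had 279, 199 and 129.9 FPKM in cesium roots, against 46.7, 55.0 and 45.1 FPKM in control roots (log2 change 1.96 ± 0.235, adjusted p = 0.000424), with 359, 307 and 263 FPKM in low-potassium roots, a difference from cesium roots that did not pass (adjusted p = 0.0521); 7.90% of its 50-base stretches are shared with AT1G02930. GSTF14 had 56.2, 77.3 and 43.5 FPKM in cesium roots, against 159.6, 189 and 195 FPKM in control roots (log2 change -1.63 ± 0.183, adjusted p = 0.000302), ATGSTF13 fell by -1.33 ± 0.210 and ERD9 by -1.71 ± 0.261. Of 97 UDP-glycosyltransferases 12 rose (9 to 18) and 15 fell (10 to 15). UGT71B5 (AT4G15280) had 21.9, 17.4 and 6.97 FPKM in cesium roots, against 1.02, 1.45 and 1.11 FPKM in control roots (log2 change 2.78 ± 0.331, adjusted p = 0.000416). UGT74E2, which conjugates the auxin precursor indole-3-butyric acid, rose by 1.56 ± 0.221, and UGT72E3, which acts on lignin precursors, fell by -1.63 ± 0.137. Of 74 2-oxoglutarate oxygenases 17 rose and 14 fell; 2A6 had 72.8, 59.6 and 44.9 FPKM in cesium roots, against 11.9, 12.8 and 11.3 FPKM in control roots (log2 change 2.18 ± 0.146, adjusted p = 2.20e-05). Of 90 NBS-LRR immune receptors 10 rose (6 to 15) and 2 fell (0 to 3), AT4G23510 rising by 0.52 ± 0.0917 and AT1G72850 by 0.52 ± 0.10. Shares that rose and fell were 11.1 and 2.22% for NBS-LRR genes, 12.4 and 15.5% for UDP-glycosyltransferases and 17.3 and 13.5% for glutathione S-transferases. Those of all genes were 11.0 and 12.9%.

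Cesium roots were also set against low-potassium roots, which differ from them in both potassium supply and cesium; the cesium libraries are shared by both comparisons, so their results are not independent. Of the 19565 genes 3326 were higher (17.0%) and 3347 lower (17.1%) in cesium roots than in low-potassium roots. In XTH, where 17 of 24 were lower in cesium than control roots, 6 were lower and 3 higher in cesium than low-potassium roots. The AGP and fasciclin-like list had 2 lower and 10 higher than low potassium, and Aux/IAA 3 lower and 1 higher. MYB had 36 lower and 9 higher, and MATE 3 lower and 15 higher. AIR1 was above low-potassium roots (log2 change 5.69 ± 0.207, adjusted p = 9.63e-07), as were AT4G37850 (log2 change 3.12 ± 0.159, adjusted p = 4.17e-06) and AT2G43530 (log2 change 3.66 ± 0.220, adjusted p = 7.68e-06). For AT2G04050 (log2 change -0.09 ± 0.186, adjusted p = 0.747), RTFL8 (log2 change -0.03 ± 0.158, adjusted p = 0.903) and ARF9 (log2 change -0.00 ± 0.0933, adjusted p = 0.985) the difference between cesium and low-potassium roots did not pass. SLAH3 (log2 change -1.45 ± 0.0992, adjusted p = 1.58e-05) and CAX3 (log2 change -1.76 ± 0.10, adjusted p = 6.19e-06) were lower in cesium than in low-potassium roots.

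The regions of some named genes are shared with or span another gene in the files, so their values may hold fragments of a partner: 2A6, AAP3, ABCG14, ABCG20, ACA9, AGL26, AGP13, AIR1, AT1G15405, AT1G52820, AT1G72850, AT2G01130, AT2G21100, AT2G40200, AT3G05770, AT4G12490, AT4G12545, AT4G13860, AT4G22235, AT4G24660, AT5G65900, ATCG00630, CESA1, CLE20, CRK11, CRK28, CYP712A1, DCL3, DTX1, EARLI1, EDS5, ERD9, ESB1, EXPA18, EXT3, GLR3.4, GLR3.5, GSO1, IAA9, ICS2, LEA7, MP, MYB40, MYB53, MYB9, MYB92, NAC042, OCT1, QRT1, QRT2, RAP2.11, RS31a, SPL15, TCP3, XTH15 and emb1796. The region given for AGP13 is held by 205 genes.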

How the data were processed

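RNA-seq of whole roots was measured in 9 libraries, 3 each of cesium, control and low-potassium roots, grouped by the submitters' titles. The deposited values are FPKM per gene with an interval for each, as the authors made them; per the submitters' processing notes the build was TAIR10 and the tools were Cufflinks 2.2.1, STAR 2.5.0c and Bowtie2 2.3.4.1, with no role stated. The scaling from library to library was not given in the sources used here. A table the authors deposited holds their log2 fold changes and q-values, used as an alternative. Read depth is unknown from FPKM; steps between low values put the libraries' relative depth at 97.3 to 102% of control replicate 1, and the authors' interval reached to 90.2 to 92.4% of the value on either side under 5 FPKM and 46.2 to 46.3% over 50 FPKM (medians per library). The protocols in the labels state Trizol extraction and strand-specific libraries; whether counting used the strand is not stated there.

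From these values log2(FPKM + 1) was fitted with limma 3.58.1 (R 4.3.3), with an intensity trend, in a one-way model over all 9 libraries, for the 19565 genes whose mean reached 1 FPKM over the 6 cesium and control libraries; 5 genes with 6 values marked other than OK were left out. Contrasts were cesium minus control and cesium minus low potassium, with Benjamini-Hochberg adjusted p-values over all genes tested and a threshold of 0.05; values after ± are standard errors unless SD is stated. A fold change on this scale understates that of low genes. Names came from RefSeq (37045 of 37547 identifiers matched) and promoters from TAIR10.1, whose gene regions equalled those in the files for 27467 genes. Of the tested genes, 6596 share a region with another gene or span one.

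Named genes were the 12 highest and 12 lowest log2 changes under the criteria given with them. In each family, up to 4 members with the largest change were named among those that met the same criteria. These were passing, no overlap between the groups and a mean of at least 5 FPKM in the higher group. Where no member met them, up to 2 with the smallest adjusted p were taken. The most abundant member was also named, and any member of a family where 5 or fewer passed could be. The members, families and lists were chosen with earlier results of these data known. Alternatives were pseudocounts of 0.1 and 0.5, a filter of 5 FPKM or none, median-ratio scaling, quantile normalization, no trend, a fit on 2 groups, a replicate block, the authors' q-values, genes listed at 0 left out, a minimum log2 change of 1 and each library left out. Same-numbered cesium and control libraries had deviations from their group means that correlated at -0.0557, 0.117 and -0.0651, so the numbers were not treated as pairs.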

Additional observations from a re-analysis of the deposited data

How the results depend on the processing

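Against control, 4659 genes were called. Leaving out each library in turn gave 2943 to 4852 genes, the lowest counts being 2943 without control replicate 2 and 3093 without control replicate 3; fewer libraries entered these fits. Requiring a log2 change of at least 1 left 946 genes. Against low potassium, 6673 genes were called, 4820 to 6600 with a library left out and 1002 with a log2 change of at least 1. Of the family members 965 were called, 692 to 1020 with a library left out and 267 with a log2 change of at least 1. No direction reversed under any alternative run. With the replicate block the counts were 4221 genes against control, 6081 against low potassium and 926 family members; the numbers did not pair the libraries. The authors' deposited q-values called 4427 genes, 3547 of them also called here in the same direction. Of 334 named genes, 282 were called, and 217 of these were called under every alternative that gave a value; the cause of the others' losses was not tested. Of the family counts under an alternative, 1239 were within 1.5 times the count with all libraries and 189 were not. The authors' intervals were widest for genes under 5 FPKM, where small differences could not be read, and 3 libraries a group limit the precision of every value.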
